A study of Mus musculus with 55 samples.

Results

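The comparison described here set RNA of 5 tumours from entinostat-treated NSG mice against RNA of 5 tumours from vehicle-treated NSG mice, which are 10 of the 55 samples of the series. The members were the 10 libraries whose labels give NSG as the host strain and Entinostat or Vehicle as the treatment (the vehicle libraries also carry the name Non-Treatment), and every gene of their normalised expression table was considered. All tumours grew from BBN963, a mouse bladder cancer cell line, so the tumour RNA of every group comes from a single line. Another NSG group of 5 baseline tumours entered the same statistical fit, and 15 RNA libraries from BBN963 tumours in C57BL/6 mice, which have an intact immune system, served as the comparison host. The labels give no age or sex of the mice, and no dose, schedule or tumour volume for the NSG mice. For the C57BL/6 mice they give subcutaneous injection, entinostat in the chow at 12 mg/kg from a volume of 200 mm3, and collection of entinostat tumours at 100 mm3. The labels do not say whether the NSG tumours of both groups were collected at the same volume or time.

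Histone deacetylases remove acetyl groups from lysines of histones and other proteins, and the class I enzymes Hdac1, Hdac2 and Hdac3 work inside corepressor complexes such as NuRD, Sin3, CoREST and NCoR. Entinostat is a benzamide that inhibits class I deacetylases, and induction of the cyclin-dependent kinase inhibitor gene Cdkn1a through GC-rich Sp1-type elements near its start site is a textbook response of cultured cells to this drug class. NSG mice carry the Prkdc scid allele and a null allele of Il2rg, the common cytokine receptor gamma chain, and lack mature T, B and NK cells while keeping macrophages, neutrophils and stroma. Drug responses in these tumours are therefore measured in a host without mature lymphocytes.

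Promoter sequences are shown for 2 textbook targets of the drug class (Cdkn1a and the linker histone gene H1f0) and for Mmp3, the stromal protease gene with the smallest p-value of its list. Each covers 150 bases before and 20 bases after the annotated start, 5′ to 3′ on the gene's strand, from RefSeq on GRCm38.p6. Capitals mark GGGCGG (the GC box) in Cdkn1a and H1f0 and TGANTCA (the AP-1 element) in Mmp3, searched on both strands.
Cdkn1a, downstream start, chr17:29093619-29093788, plus strand: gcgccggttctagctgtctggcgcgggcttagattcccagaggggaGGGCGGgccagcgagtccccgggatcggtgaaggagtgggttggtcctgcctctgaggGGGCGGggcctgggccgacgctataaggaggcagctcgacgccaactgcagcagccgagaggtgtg
H1f0, chr15:79028062-79028231, plus strand: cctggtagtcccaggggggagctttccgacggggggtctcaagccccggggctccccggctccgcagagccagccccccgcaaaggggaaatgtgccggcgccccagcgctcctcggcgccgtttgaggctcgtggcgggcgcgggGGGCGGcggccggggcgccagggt
Mmp3, chr9:7445672-7445841, plus strand: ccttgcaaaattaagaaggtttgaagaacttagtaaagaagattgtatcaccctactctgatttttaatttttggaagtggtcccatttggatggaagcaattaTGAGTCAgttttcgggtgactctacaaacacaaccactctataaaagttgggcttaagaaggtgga
The Cdkn1a window held 2 GC boxes and the H1f0 window 1, whereas the window of the upstream Cdkn1a start (not shown) held 0. GGGCGG was present in 35.7% of all 32851 mouse promoter windows of 300 bases, so its presence does not set these genes apart. The Mmp3 window held 1 AP-1 element, which 7.81% of all windows held, and 1 TATAAA, which 13.6% held. The element matched in the Mmp3 window does not overlap the TATAAA.

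The entinostat tumours are called E1 to E5 (NSG_Entinostat_306, NSG_Entinostat_312, NSG_Entinostat_315, NSG_Entinostat_319 and NSG_Entinostat_327) and the vehicle tumours V1 to V5 (NSG_Non-Treatment_302, NSG_Non-Treatment_308, NSG_Non-Treatment_311, NSG_Non-Treatment_323 and NSG_Non-Treatment_326), names that carry no order. Each library was represented by DESeq2-normalised counts, whose sum per library ran from 30400000 to 37200000. The spacing of the lowest values put the sequencing depth near 23900000 to 51700000 counted reads in 9 of the 10 libraries and near 11000000 in entinostat tumour E4. That library had 17968 genes above 0, against 22427 to 24032 in the other 9, and its correlation with them over log2 values was 0.884 to 0.926 (median 0.914). It stood apart on both leading principal components. The library names end in S numbers, 1 to 5 for entinostat, 6 and 13 to 16 for vehicle and 12 to 16 for baseline tumours; the labels do not say what these mark, and if they mark a batch it cannot be told apart from treatment. Among the other libraries, entinostat tumours correlated with vehicle tumours at a median of 0.955 over 20 pairs, vehicle tumours with each other at 0.948 over 10 pairs, and entinostat tumours with each other at 0.965 over 6 pairs. The pairs share libraries and these correlations are descriptions. Of the lymphocyte markers, Cd3g was above 0 in 1 of the 10 tumours, Ncr1 was at 0 in all 10, and Cd3e and Ms4a1 did not exceed 4.52 normalised counts. Other members were detected: 10 of 18 T cell genes, 5 of 13 B and plasma cell genes and 2 of 12 NK genes passed the filter on low values, and the T cell receptor constant gene Trac was at 41.3 to 75.8. Summed T cell markers were 519 to 1251 in the entinostat tumours and 423 to 629 in the vehicle tumours, and summed B and plasma cell markers 29700.1 to 59067 in the entinostat tumours and 30488 to 39598 in the vehicle tumours, nearly all of the latter from Sdc1 (29462 to 58978), a syndecan gene that epithelial cells also express. Tumour E4 had the highest Cd3d (82.6, against 5.35 to 22.1 in the other 9). Transcripts of Il2rg (98.7 ± 20.9 normalised counts in entinostat and 118 ± 46.8 in vehicle tumours, SD, n = 5) and Prkdc (620.0 ± 198 and 629 ± 142) were present; the NSG alleles can leave transcripts, so these levels check nothing.

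**Figure D1:**
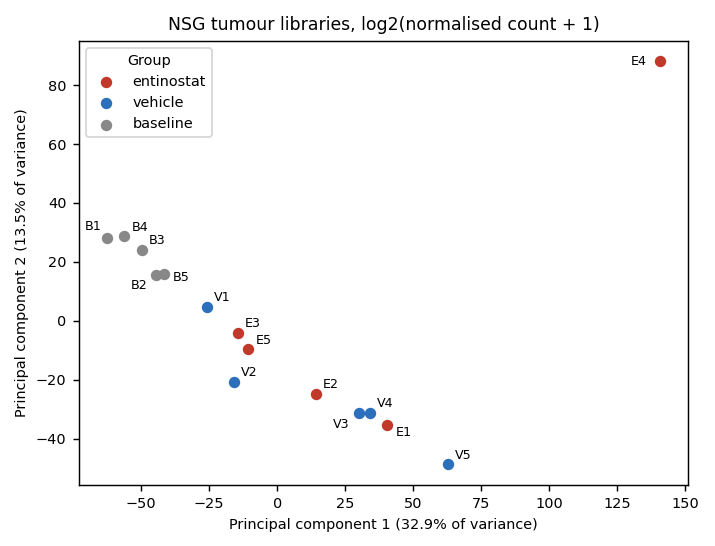
Principal components of the 15 NSG tumour libraries from log2(normalised count + 1) of the 17752 genes tested, with component 1 (32.9% of the variance) on the x axis, component 2 (13.5%) on the y axis and the tumour's name beside each point (E entinostat, V vehicle, B baseline). Entinostat tumour E4 lies alone at the upper right, and the other entinostat and vehicle tumours are interleaved.

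Whether entinostat changed gene expression in tumours of mice without lymphocytes was tested gene by gene on log2(normalised count + 1) with limma, in 1 fit of the 15 NSG libraries. No gene was called: 0 of 17752 genes tested (0%) had an adjusted p below 0.05, and the smallest adjusted p was 0.168. At an unadjusted p below 0.05 there were 1287 genes (7.25%), of which 683 (3.85%) had the higher mean and 604 (3.4%) the lower mean in entinostat tumours. All 5 entinostat tumours lay above all 5 vehicle tumours for 64 genes (0.361%) and below them for 75 (0.422%). If the labels carried no information, each of these orders would arise in 1 of the 252 ways of relabeling the tumours. Both shares are close to that, so lack of overlap does not by itself set a gene apart, here or below. An exact two-sided permutation test of each gene over the 252 relabelings called 0 genes. Its smallest possible p is 0.00794, which 139 genes reached, and the smallest value after adjustment was 0.917. With so few genes at that p, no gene could be called over 17752 tests, so this outcome adds nothing to that of limma.

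These data do not show that the groups are alike. The standard error of the log2 difference had a median of 0.24 and a 95th percentile of 0.78. The 95% interval of the difference lay wholly within 2-fold in either direction for 12064 genes (68%) and within 4-fold for 16019 (90.2%). For the genes outside the second count the interval ran past 4-fold in at least 1 direction. The fitted log2 differences themselves ran from -0.75 at the 5th percentile to 0.68 at the 95th, with a median of -0.027. The median spread within a group was 0.41 log2 units (SD) for entinostat tumours, 0.33 without tumour E4, and 0.39 for vehicle tumours. It was 0.26 for the baseline tumours, whose smaller spread enters the standard errors, intervals and p-values through the shared fit. In a fit of only the 10 entinostat and vehicle libraries, 835 genes (4.7%) had an unadjusted p below 0.05. Without tumour E4 there were again 0 called genes, and 1601 genes with an unadjusted p below 0.05.

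**Figure D2:**
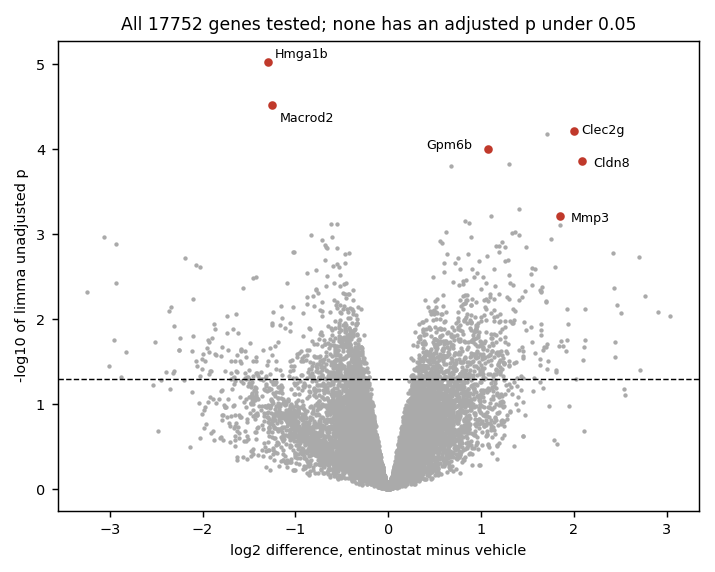
Log2 difference between entinostat and vehicle tumours (x axis) against -log10 of the unadjusted limma p (y axis) for each of the 17752 genes tested, with an unadjusted p of 0.05 as the dashed line. Hmga1b is the highest point and its adjusted p is 0.168.

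Gene lists are described by their medians, which rest on few tumours: of 41 lists with 10 or more tested genes, 17 had a median that changed sign when 1 tumour was left out and 4 under another scaling.

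Levels of the drug's own targets overlapped between the groups. In this and the following sentences, values are normalised counts in the order E1 to E5 for entinostat and V1 to V5 for vehicle, and differences are on the log2(value + 1) scale. Hdac1 was at 4435, 4085, 4149, 4311 and 3494 in the entinostat tumours and 3709, 4458, 5109, 3697 and 4018 in the vehicle tumours, a difference of -0.03 (SE 0.12, 95% interval -0.27 to 0.22, limma adjusted p = 0.959). The groups overlapped, and the interval runs from 0.827-fold to 1.16-fold. Hdac2 differed by 0.071 (SE 0.15), with the highest entinostat value in tumour E4 (3294). Hdac3, the catalytic subunit of the NCoR complex, was at 4122, 3974, 3962, 4172 and 3263 in the entinostat tumours and 4056, 4187, 4427, 5406 and 5323 in the vehicle tumours, a difference of -0.26 (SE 0.12, 95% interval -0.51 to -0.0021, limma adjusted p = 0.685). The ranges overlapped narrowly, at 3263 to 4172 and 4056 to 5406, with vehicle tumour V1 inside the entinostat range. Of the 11 histone deacetylase genes, 10 had an interval within 2-fold (68% of all genes did) and the median difference was -0.03, beside -0.027 over all genes. Of 16 genes of the class I corepressor complexes, all 16 had an interval within 2-fold, beside the same 68% of all genes (median 0.035). The NuRD subunit gene Mta3 had the smallest p of the list, at 1602, 1663, 1302, 1681 and 1542 in the entinostat tumours and 1246, 1219, 1289.8, 1358 and 1352 in the vehicle tumours, a difference of 0.26 (SE 0.11, 95% interval 0.029 to 0.50, limma adjusted p = 0.682).

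Genes that respond to deacetylase inhibitors in cultured cells had a median difference near 0 in these tumours. The list of 16 such genes had 8 fitted differences above 0, a median of -0.0092, a range of -1.39 to 0.54, and no member with an unadjusted p below 0.05. Cdkn1a, whose promoter is shown above, was at 3169, 2682, 2501, 2417 and 1833 in the entinostat tumours and 4664, 4009, 2134, 2544 and 2327 in the vehicle tumours. The highest values were in vehicle tumours V1 and V2, and the groups overlapped. The difference was -0.27 (SE 0.23, 95% interval -0.75 to 0.21, limma adjusted p = 0.774), an interval that ends at a 1.16-fold rise in this fit. Leaving out 1 tumour moved the difference to between -0.39 (SE 0.23) and -0.10 (SE 0.21). H1f0, which encodes the linker histone of non-dividing cells and is a marker gene of deacetylase inhibition, was at 10265, 12961, 11557, 14290.2 and 12726 in the entinostat tumours and 9016, 13526, 11826, 11278 and 9279 in the vehicle tumours. Those ranges overlapped and the difference was 0.18 (SE 0.15, 95% interval -0.15 to 0.50, limma adjusted p = 0.777), an interval that ends at a 1.42-fold rise in this fit. Gsn, the actin-severing protein gelsolin, differed by 0.11 (SE 0.20). Of the 7 genes of cyclin-dependent kinase inhibitors, 1 was above 0, with a median of -0.23; Cdkn2d had the smallest p, with a difference of -0.32 (SE 0.13). Among the p53 targets, Pmaip1, which encodes the pro-apoptotic BH3-only protein NOXA, was at 3109, 3519, 3063, 4245 and 3680.2 in the entinostat tumours and 1942, 2024, 1932, 2898 and 2947 in the vehicle tumours. Every entinostat tumour lay above every vehicle tumour, and the difference was 0.60 (SE 0.16, 95% interval 0.25 to 0.95, limma adjusted p = 0.676). The 14 p53 targets as a list had a median of -0.22, with 1 unadjusted p below 0.05 in the higher and 2 in the lower direction. Over all genes these shares were 3.85% and 3.4%.

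Neuronal genes silenced through the REST corepressor and germline genes are groups that deacetylase-containing complexes can hold off in epithelial cells. Both included genes too low to be tested. Of 18 neuronal genes 11 passed the filter on low values (a normalised count of at least 10 in at least 5 of the 15 libraries), with a median of 0.04, and of 16 germline genes 4 passed. Scg3, a secretogranin gene, was at 15.5, 0.741, 10.7, 31.8 and 14 in the entinostat tumours and 1.32, 0, 2.89, 2.91 and 2.26 in the vehicle tumours, a difference of 2.10 (SE 0.88, 95% interval 0.23 to 3.96, limma adjusted p = 0.682); most of these values are a few reads. Snap25, a synaptic vesicle fusion gene, overlapped between groups, at 777 to 2421 and 451 to 4075, and differed by 0.45 (SE 0.54).

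The tumour cells' squamous and urothelial genes varied strongly between tumours of the same group. Krt5, a basal keratin, was at 3195, 8850.0, 15566, 6615 and 2139 in the entinostat tumours and 31575, 43080, 2285, 18451 and 1381 in the vehicle tumours. Vehicle tumours V1, V2 and V4 were high and V3 and V5 low, so that the vehicle range enclosed the entinostat range, and the difference was -0.73 (SE 0.90, 95% interval -2.64 to 1.17, limma adjusted p = 0.842). The partner keratin Krt14 followed the same order of vehicle tumours, at 14938, 15649.8, 34069, 16287 and 7385 in the entinostat tumours and 61637, 64737, 8030.0, 47489 and 4982 in the vehicle tumours, and differed by -0.60 (SE 0.70). Krt13, a keratin of suprabasal cells, differed by -1.97 (SE 1.16), with values from 176 to 1784 in entinostat and 229 to 20261 in vehicle tumours. Over the 20 keratin and cornified envelope genes, 3 fitted differences were above 0 (46.3% of all genes were) and the median was -0.59. No member had an unadjusted p below 0.05 and 0 had an interval within 2-fold (68% of all genes did). The median changed sign with a single library, to 0.13 without vehicle tumour V1, and was -1.29 without vehicle tumour V5. Luminal genes went in several directions. Gata3, a luminal transcription factor gene, was at 1356, 1661, 1434, 1091 and 1519 in the entinostat tumours and 891, 763, 1196, 1088 and 1279 in the vehicle tumours, a difference of 0.45 (SE 0.16, 95% interval 0.11 to 0.79, limma adjusted p = 0.682), with entinostat tumour E4 inside the vehicle range. Upk3a, a uroplakin of the apical plaque, was at 124, 6.69, 101, 57.1 and 66.1 in the entinostat tumours and 119.5, 146, 631, 833 and 41.8 in the vehicle tumours, a difference of -2.01 (SE 0.84, 95% interval -3.78 to -0.23, limma adjusted p = 0.682), with tumour E2 far below the other entinostat tumours. Upk2, another uroplakin gene, differed by 0.45 (SE 0.48).

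Epithelial identity and proliferation were measured more precisely. All but 1 of the 15 epithelial adhesion and splicing genes had an interval within 2-fold (68% of all genes did). Their median was 0.13, which was 0.0051 without vehicle tumour V1 and 0.20 without entinostat tumour E4. Epcam, an epithelial surface adhesion molecule, was at 23917, 24410, 20597, 26881 and 20979 in the entinostat tumours and 14812, 16042, 22195, 20941 and 24627 in the vehicle tumours. The groups overlapped, with vehicle tumours V1 and V2 lowest, and the difference was 0.26 (SE 0.16, 95% interval -0.081 to 0.61, limma adjusted p = 0.719). The E-cadherin gene Cdh1 differed by 0.36 (SE 0.24) and the splicing factor gene Esrp1 by -0.0024 (SE 0.16). The intermediate filament gene Vim, a mesenchymal marker, differed by 0.011 (SE 0.19). Of 24 mitosis genes, 23 had an interval within 2-fold (68% of all genes did) and the median was -0.092, which became 0.057 without tumour E4. Mki67, the proliferation antigen Ki-67, was at 2647, 7028, 4621, 1798 and 6785 in the entinostat tumours and 5265, 5399, 2827, 2444 and 2914 in the vehicle tumours. Tumours E1 and E4 were low and E2 and E5 high within the entinostat group, whose range enclosed the vehicle range, and the difference was 0.17 (SE 0.34, 95% interval -0.56 to 0.91, limma adjusted p = 0.906). Ube2c, a mitotic ubiquitin-conjugating enzyme gene, had the smallest p of the mitosis list, with a difference of -0.45 (SE 0.17), and Mcm6, of the replicative helicase, the smallest of the replication list, with 0.43 (SE 0.18).

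The fibroblast list had the highest median difference of the lists with 10 or more tested genes, and none of its genes was called. All 20 fibroblast genes had fitted differences above 0 (46.3% of all genes did), with a median of 0.57, and 5 had an unadjusted p below 0.05, beside 3.85% of all genes in that direction. The median was 0.69 without entinostat tumour E4 and 0.26 without vehicle tumour V2, which had the lowest value of the 10 tumours for Pdgfra, Thbs2, Postn and Col1a1. Beside them, the 13 ribosomal protein genes had 0 fitted differences above 0 and a median of -0.31, which was -0.42 without tumour E4 and -0.073 with quantile scaling; their part in the fibroblast values was not tested. Fibroblast genes share cells and are not independent of each other, and in bulk tumours fewer cells of a type cannot be told apart from less RNA per cell. Pdgfra, the PDGF receptor alpha of fibroblasts, was at 942, 562, 1173, 913 and 1209 in the entinostat tumours and 711, 302.4, 657, 393 and 527 in the vehicle tumours, a difference of 0.91 (SE 0.25, 95% interval 0.37 to 1.45, limma adjusted p = 0.676). Entinostat tumour E2 fell inside the vehicle range and the other 4 lay above it. Thbs2, a matricellular thrombospondin, was at 7394, 6045, 13704, 8225 and 11923 in the entinostat tumours and 5748, 2515, 5286, 5067 and 4554 in the vehicle tumours. No entinostat value reached down to the vehicle values, of which tumour V2 was far the lowest, and the difference was 1.02 (SE 0.29, 95% interval 0.40 to 1.64, limma adjusted p = 0.682). Postn, the matricellular protein periostin, was at 15627, 10308, 23403, 25769 and 15844 in the entinostat tumours and 9179.6, 5403, 11268, 12227 and 9805 in the vehicle tumours, a difference of 0.90 (SE 0.28, 95% interval 0.30 to 1.51, limma adjusted p = 0.682), with entinostat tumour E2 inside the vehicle range. The collagen gene Col1a1 differed by 0.57 (SE 0.31) with overlapping ranges of 29156 to 77398 and 20233 to 44163. Baseline tumours, which share the fit, had means of 1200.5 ± 271 for Pdgfra and 14020 ± 5058 for Thbs2 (SD, n = 5), above the vehicle means of 518 ± 172 and 4634 ± 1260.0.

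Of the matrix proteases and inhibitors, 12 of 16 had fitted differences above 0 (46.3% of all genes did). Of the list, 5 of 16 had an unadjusted p below 0.05, all higher in entinostat tumours, beside 3.85% of all genes in that direction. The list median was 0.32 (0.20 without entinostat tumour E5). Mmp3, the stromal protease stromelysin-1, was at 9573, 2596, 3955, 6591 and 2949.6 in the entinostat tumours and 1716, 496, 2645, 769 and 1829 in the vehicle tumours. Tumours E1 and E4 were highest, and tumour E2 fell just inside the vehicle range, whose top value came from tumour V3. The difference was 1.85 (SE 0.43, 95% interval 0.92 to 2.77, limma adjusted p = 0.664). The collagenase gene Mmp13 differed by 1.26 (SE 0.48) and the membrane-type protease gene Mmp14 by 0.51 (SE 0.19).

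Among signalling genes, the ligand gene Tgfb2 was at 699, 1527, 1063, 2447 and 907 in the entinostat tumours and 493, 384, 644, 731 and 707 in the vehicle tumours, a difference of 1.06 (SE 0.28, 95% interval 0.46 to 1.67, limma adjusted p = 0.676). Tumours E2 and E4 were high, and tumour E1 lay inside the vehicle range. Grem1, a secreted BMP antagonist made by stromal cells, differed by 1.31 (SE 0.39), with values of 371 to 1111 in entinostat and 159 to 429 in vehicle tumours. Of 17 TGF beta and BMP genes, 3 had an unadjusted p below 0.05 in the higher and 1 in the lower direction, and the median was -0.02. Of 17 Wnt pathway genes 5 had an unadjusted p below 0.05, all higher. Over all genes these shares were 3.85% higher and 3.4% lower. The Wnt list had 10 differences above 0 (46.3% of all genes were) and a median of 0.21, which was 0.021 without vehicle tumour V5. The Wnt receptor gene Fzd1 was at 1773, 1728, 2191, 1721 and 2248 in the entinostat tumours and 1396, 1202, 1689, 1679 and 1370.0 in the vehicle tumours, with no overlap and a difference of 0.40 (SE 0.13, 95% interval 0.13 to 0.67, limma adjusted p = 0.682). The R-spondin receptor gene Lgr5 differed by 0.83 (SE 0.28) and the receptor gene Fgfr1 by 0.77 (SE 0.24). Hoxa10, a posterior homeobox gene, was at 6.29, 129, 40.3, 68.8 and 22.3 in the entinostat tumours and 7.59, 3.06, 7.3, 6.5 and 5.36 in the vehicle tumours, a difference of 2.43 (SE 0.73, 95% interval 0.88 to 3.98, limma adjusted p = 0.682); tumour E1 lay inside the vehicle range.

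Transcripts of non-tumour tissue varied widely between the libraries. Skeletal muscle genes had a median difference of -1.24 over 14 genes, with 0 above 0 (46.3% of all genes were). Their summed normalised counts were 955 to 25387 in the entinostat tumours and 1265 to 112988 in the vehicle tumours. Without vehicle tumour V5, the library with the highest sum, the median was -0.29. The muscle actin gene Acta1 was at 416, 2031, 683, 4107 and 70.2 in the entinostat tumours and 6271, 277, 186, 3175 and 16463 in the vehicle tumours. Its values spanned over an order of magnitude in both groups, and the difference was -1.33 (SE 1.29, 95% interval -4.08 to 1.42, limma adjusted p = 0.8). The endothelial list had a median of 0.23, which was 0.087 without entinostat tumour E5 and 0.38 without vehicle tumour V1, and its angiopoietin receptor gene Tek differed by 0.90 (SE 0.31). The summed fibroblast markers were 125186 to 307810 in the entinostat tumours and 81091 to 181337 in the vehicle tumours.

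Myeloid cells are the leukocytes that NSG mice keep. Summed macrophage and monocyte markers were 79364 to 143620 in the entinostat tumours and 64180.2 to 159774 in the vehicle tumours, overlapping ranges, and the 23 tested genes had a median difference of 0.35, with 20 above 0 (46.3% of all genes were) and 3 with an unadjusted p below 0.05, all higher (3.85% of all genes). The median was 0.22 without vehicle tumour V2 and 0.53 without entinostat tumour E2. The lysosomal macrophage marker Cd68 was at 2934, 1963, 2421, 2169.5 and 2779 in the entinostat tumours and 1916, 1675, 2015, 2629 and 2643 in the vehicle tumours, a difference of 0.18 (SE 0.16, 95% interval -0.16 to 0.52, limma adjusted p = 0.787). The mannose receptor gene Mrc1 was at 2603, 1543, 1672, 3983 and 4838 in the entinostat tumours and 1528, 629.8, 2135, 876 and 1342 in the vehicle tumours. Tumours E4 and E5 were highest, tumours E2 and E3 fell inside the vehicle range, and the difference was 1.15 (SE 0.34, 95% interval 0.42 to 1.87, limma adjusted p = 0.682). The lipoprotein gene Apoe differed by 0.73 (SE 0.31). The neutrophil list had a median of 0.29, which was 0.036 without vehicle tumour V2, 0.14 without entinostat tumour E4 and 0.50 without vehicle tumour V1, and its alarmin gene S100a8 ranged over 10440.3 to 50821 in entinostat and 6090.4 to 25301 in vehicle tumours, a difference of 0.65 (SE 0.46). Itgax, the integrin CD11c of dendritic cells, was at 284, 305.5, 988, 292 and 1411 in the entinostat tumours and 1921, 720.4, 2195, 839 and 482 in the vehicle tumours, a difference of -1.02 (SE 0.48, 95% interval -2.04 to -0.0065, limma adjusted p = 0.685). This was the lowest difference of the 13 tested dendritic cell genes, of which 6 were above 0, the highest at 1.05. Their median was -0.002, and ran from -0.33 without vehicle tumour V5 to 0.29 without vehicle tumour V3. Among cytokines, Csf3, which drives granulocyte production, differed by -1.56 (SE 0.47) and Il6 by 1.28 (SE 0.52); the stromal chemokine gene Cxcl12 differed by 1.06 (SE 0.42).

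Interferon and antigen presentation genes had medians above 0 without any call, and 1 library could take the presentation medians below 0. Of 22 type I interferon genes 20 were above 0 (46.3% of all genes were), with a median of 0.21 and none with an unadjusted p below 0.05. The 18 interferon gamma genes had a median of 0.27. The type I median was 0.12 without vehicle tumour V2 and 0.39 without vehicle tumour V3, and the interferon gamma median was 0.17 without vehicle tumour V5 and 0.48 without V3. Isg15, an interferon-induced ubiquitin-like protein gene, was at 9325, 3180.2, 6797, 5591 and 5597 in the entinostat tumours and 3680.3, 3521, 8849, 4436 and 3974 in the vehicle tumours, with vehicle tumour V3 far above the other vehicle tumours, and differed by 0.33 (SE 0.29). Of 18 MHC class I genes, 16 had an interval within 2-fold, beside 68% of all genes (median 0.10, and -0.0037 without vehicle tumour V2). The MHC class II median was 0.19, and -0.035 without vehicle tumour V5. The class I heavy chain gene H2-K1 differed by 0.094 (SE 0.18) and the light chain gene B2m by 0.027 (SE 0.21). Tap1, the peptide transporter gene, was at 3014, 2723, 3056, 2296 and 3249.8 in the entinostat tumours and 2309, 1851, 2452, 2446 and 1970.4 in the vehicle tumours, a difference of 0.38 (SE 0.15, 95% interval 0.068 to 0.69, limma adjusted p = 0.682), with vehicle tumours V1, V3 and V4 inside the entinostat range. Cd274, which encodes PD-L1, was at 1817, 1204, 1697, 1552 and 1718 in the entinostat tumours and 2154, 995, 1435, 803 and 828 in the vehicle tumours. Vehicle tumour V1 had the highest value of the 10, the groups overlapped, and the difference was 0.45 (SE 0.23, 95% interval -0.035 to 0.94, limma adjusted p = 0.696). The 14 checkpoint and immune regulator genes had a median of -0.026.

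**Figure D3:**
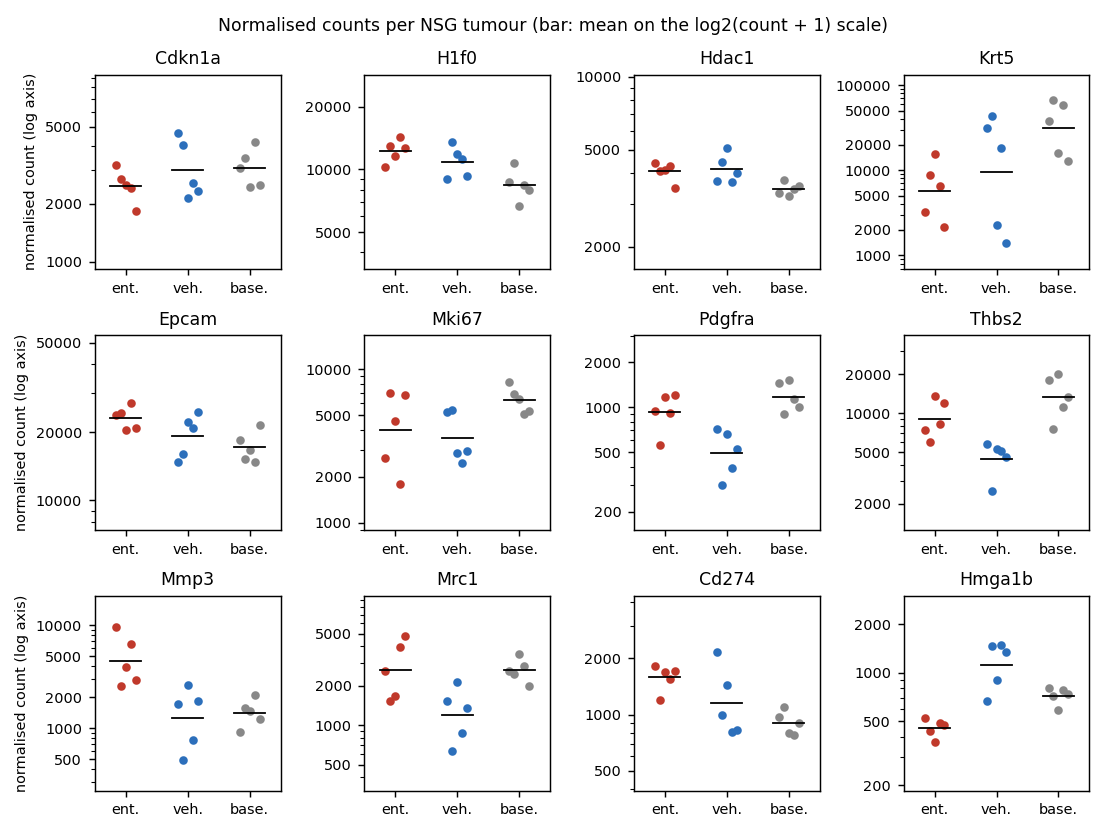
Normalised counts per tumour (y axis, log scale) of 12 genes in entinostat (ent.), vehicle (veh.) and baseline (base.) NSG tumours, 5 tumours each, with a bar at the group mean on the log2(count + 1) scale. Thbs2 and Hmga1b do not overlap between entinostat and vehicle tumours, and Cdkn1a, H1f0, Hdac1, Krt5, Epcam and Mki67 do.

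The genes with the smallest p-values, chosen after their values were seen, belonged to no list. Hmga1b was at 521, 434, 370.2, 488 and 472 in the entinostat tumours and 664, 1467, 898, 1494 and 1343 in the vehicle tumours. All entinostat tumours lay below all vehicle tumours, and the difference was -1.30 (SE 0.20, 95% interval -1.73 to -0.87, limma adjusted p = 0.168). Hmga1b (chromosome 11, 120762794 to 120764392, GRCm38) is a copy of the chromatin architectural gene Hmga1 with nearly the same sequence, so its reads may be split with Hmga1 in the counting and its level is uncertain. Its adjusted p fell to 0.00488 without vehicle tumour V1 and to 0.0422 with limma array weights. It rose to 0.683 without vehicle tumour V2, to 0.919 in a fit of only the 10 libraries and to 0.213 with array weights on those 10. Macrod2, an ADP-ribosyl hydrolase gene, was at 105, 99.8, 92.2, 90.1 and 48.7 in the entinostat tumours and 206, 209, 264, 164 and 178 in the vehicle tumours, also without overlap, a difference of -1.25 (SE 0.22, 95% interval -1.71 to -0.79, limma adjusted p = 0.271). In the other direction, Clec2g, a C-type lectin gene, was at 61, 43.3, 95.3, 108 and 36.6 in the entinostat tumours and 19.2, 16, 20, 16.8 and 7.21 in the vehicle tumours, a difference of 2.0 (SE 0.37, 95% interval 1.21 to 2.78, limma adjusted p = 0.297). Every entinostat tumour exceeded every vehicle tumour. Myo3b, an unconventional myosin gene, differed by 1.71 (SE 0.32), the proteolipid family gene Gpm6b by 1.07 (SE 0.21) and Peg3, an imprinted zinc finger gene, by 1.30 (SE 0.26), each without overlap. Cldn8, a tight junction claudin gene, was at 109, 171, 239, 401 and 457 in the entinostat tumours and 30.3, 52.1, 111, 46.6 and 66.6 in the vehicle tumours, where entinostat tumour E1 fell inside the vehicle range, and differed by 2.09 (SE 0.42, 95% interval 1.20 to 2.98, limma adjusted p = 0.349).

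Medians by chromosome and by promoter class were close to that of all genes, while the share with an unadjusted p below 0.05 varied more. Chromosome medians of the log2 difference ran from -0.12 on chromosome 16 to 0.049 on chromosome 1. That share ran from 3.64% on chromosome 12 to 12.2% on chromosome 16, beside 7.25% of all genes. Of 12144 tested genes with a promoter window, those with the GC box GGGCGG (7769 genes) had a median of -0.031 and those without it -0.013. Genes with the AP-1 element had a median of -0.027 and those without it -0.026. Genes with the interferon-stimulated response element had 0.031 against -0.028. In the tercile of promoters poorest in CpG the median was 0.016, and in the richest it was -0.031. The share with an unadjusted p below 0.05 was 8.2% in the poorest and 6.1% in the richest tercile. It was 9.15% with the AP-1 element and 6.92% without it, and 5.96% with the interferon-stimulated response element and 7.13% without it. Differences between these shares were not tested.

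Whether the response differed between hosts was tested as the NSG difference minus the C57BL/6 difference in 1 fit of both tables. Each table was normalised separately, and a constant scale between them cancels in this contrast. The C57BL/6 arm held 5 entinostat and 6 vehicle tumours. The entinostat tumours there were collected at 100 mm3, so that host, tumour size and time of collection cannot be told apart. Of 18470 genes, 3291 (17.8%) had a response in NSG mice above that in C57BL/6 mice and 4344 (23.5%) below it at an adjusted p below 0.05, together 41.3%. The larger side was not the same under every scaling: with quantile scaling 4153 genes were above and 3776 below, so that the share above among called genes was 52.4% and not 43.1%. In that fit the C57BL/6 response had 10751 called genes (58.2%) and the NSG response 0, with 685 (3.71%) at an unadjusted p below 0.05.

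The share of genes past the threshold varied between lists. All 20 of 20 keratin and cornified envelope genes, 15 of 15 epithelial adhesion genes and 22 of 24 mitosis genes had a response in NSG mice above that in C57BL/6 mice at an adjusted p below 0.05. All 20 of 20 fibroblast genes, 21 of 24 macrophage genes and 11 of 14 muscle genes had a lower response in NSG mice by the same test. Only 23 of those 24 macrophage genes passed the filter in NSG tumours, and the rest entered through the C57BL/6 tumours alone. In other lists, 0 of 5 red blood cell genes and 1 of 10 mast cell and eosinophil genes had a lower response. So had 3 of 11 adipocyte genes, and no member of these lists had a higher response. Of all genes, 17.8% had a higher and 23.5% a lower response. List median differences between hosts were -1.13, -1.89 and -3.31 in that order, so these counts do not show like responses. Of the 10 mast cell and eosinophil genes, 9 passed the filter in NSG tumours. Krt5 in C57BL/6 tumours was 34.9 to 422 with entinostat and 33401 to 168752 with vehicle, and its response differed between hosts by 8.82 (SE 1.13, adjusted p = 7.81e-07). Epcam was 102 to 878 and 8669.6 to 19419 there, a difference between hosts of 6.25 (SE 0.52, adjusted p = 6.18e-10). For Cd68 the C57BL/6 values were 12203 to 29998 with entinostat and 421 to 1974 with vehicle, and the hosts differed by -4.42 (SE 0.42, adjusted p = 7.09e-09). Krt5 and Epcam values with entinostat did not overlap those with vehicle in C57BL/6 tumours, and did overlap them in NSG tumours.

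Pdgfra differed between hosts by -4.29 (SE 1.16, adjusted p = 0.00435), Mmp3 by -4.76 (SE 1.34, adjusted p = 0.00572) and Cd274 by -2.0 (SE 0.39, adjusted p = 0.000185), each a lower response in NSG mice. Mki67 differed by 2.20 (SE 0.40, adjusted p = 8.8e-05), H1f0 by 1.55 (SE 0.22, adjusted p = 2.91e-06), Tap1 by 1.45 (SE 0.26, adjusted p = 7.82e-05) and the interferon-induced chemokine gene Cxcl10 by 2.88 (SE 0.59, adjusted p = 0.000331), each a higher response in NSG mice. For Mki67, H1f0 and Tap1 the C57BL/6 response itself was negative, at -2.02, -1.37 and -1.07, beside 0.17, 0.18 and 0.38 in NSG mice. For Cdkn1a the difference was -0.43 (SE 0.46, adjusted p = 0.483) and for Tgfb2 -0.27 (SE 0.75, adjusted p = 0.803), neither past the threshold. Further genes were ranked if their difference was called and their mean was at least 50 in some group. Predicted genes, Riken clones and pseudogenes were passed over. The 6 largest positive differences among such genes included Sprr2a2 (9.90) and Sprr2a3 (9.73), small proline-rich genes that share near-identical copies. The others were the keratin genes Krt15 (9.81) and Krt14 (9.52), the desmosomal plakophilin gene Pkp1 (9.55) and the FGF carrier gene Fgfbp1 (9.44). The 6 largest negative differences among such genes included the striated muscle genes Pvalb (-11.38), Ckm (-10.39), Acta1 (-10.36) and Myh4 (-9.14). The others were the muscle and nerve elongation factor gene Eef1a2 (-9.64) and the neuropeptide gene Npy (-10.53). Npy did not pass the filter in NSG tumours and entered this fit only through the C57BL/6 tumours with entinostat, where it is high, so it had to differ. Summed muscle markers varied widely between tumours of 1 group, and their part in these differences was not tested.

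**Figure D4:**
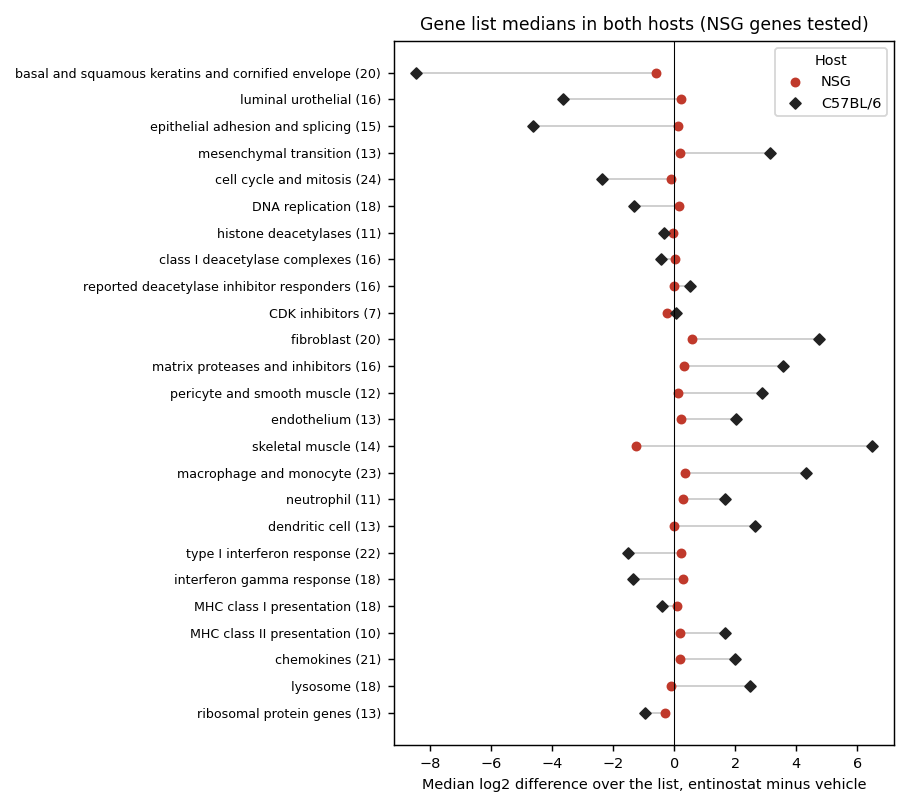
Median log2 difference between entinostat and vehicle tumours (x axis) over 25 gene lists (y axis, with the number of genes tested in NSG tumours), as circles for NSG and diamonds for C57BL/6 hosts. NSG medians lie between -1.24 and 0.57, and C57BL/6 medians between -8.46 and 6.47.

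Both NSG arms were also set against the shared baseline tumours in the same fit. Entinostat against baseline had 37 genes higher (0.208%) and 35 lower (0.197%), which became 0 and 1 (0.00563%) without tumour E4. Vehicle against baseline had 1336 higher (7.53%) and 976 lower (5.5%), which became 2029 and 1678 (11.4% and 9.45%) in that fit. The counts share their baseline tumours and are not a test of entinostat against vehicle, which called 0 genes.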

How the data were processed

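RNA was measured by mRNA-seq with a stranded kit, per the labels' protocols. Reads were aligned with STAR to mm10 and normalised with DESeq2, per the submitters' processing notes, and the deposited values are a normalised count signal, not raw counts. Whole reads could not be recovered (64.9% to 78.7% of values under 10 reads were within 0.05 of a whole number), so no count model was used. Of 47606 rows, 47246 carried a symbol in the table. From these values, log2(value + 1) was fitted with limma 3.58.1 (R 4.3.3; trend and robust empirical Bayes) for genes at 10 or more in at least 5 of 15 NSG libraries, with Benjamini-Hochberg adjustment and calls at an adjusted p below 0.05. In the fit with C57BL/6 tumours, 10 or more in at least 4 of those libraries also sufficed. One C57BL/6 entinostat tumour of the labels, the tumour repertoire table and exome samples were not used here. The tests were also run on simulated data built from the gene means and spreads of the real values. The 55 gene lists (774 of 795 genes in the table), the comparison and the samples were chosen with earlier results of these data known. A fixed rule listed genes to name: given members and the smallest p of each list, plus genes of interest. Only some of the genes it listed are named here, so the choice among them was free. No gene passed the parts of the rule that required a call between entinostat and vehicle in NSG tumours. Differences of a gene are log2 fold changes with their standard errors. Labels do not say whether tumours of 1 group came from separate mice, so p-values measure the spread between these samples. Alternatives changed the pseudocount, filter, scaling, libraries, weights and empirical Bayes settings; the closing section gives their effect.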

Additional observations from a re-analysis of the deposited data

Results flagged for a closer look

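One tumour lay far from the other 4 of its group, by the gap to its neighbour relative to the range of the 5 log2 values, for 7 of the 122 sets of values examined, where about 1 in 20 is given by chance. Upk3a in entinostat tumour E2 was below the others, at 6.69 normalised counts. Hdac2 in entinostat tumour E4 was above the others, at 3294 normalised counts. Hdac3 in entinostat tumour E5 was below the others, at 3263 normalised counts. Thbs2 in vehicle tumour V2 was below the others, at 2515 normalised counts. Isg15 in vehicle tumour V3 was above the others, at 8849 normalised counts. Macrod2 in entinostat tumour E5 was below the others, at 48.7 normalised counts. Clec2g in vehicle tumour V5 was below the others, at 7.21 normalised counts.

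Of the 24 genes whose response was compared between hosts in the text, 22 differed at an adjusted p below 0.05 by the test of the difference itself, as 41.3% of all genes did. Of those, 12 were named for having the largest differences among the genes ranked above, which fixes their place here. Npy passed the filter only through the C57BL/6 tumours where it is high. The NSG response was above the C57BL/6 response, in log2 units, for Cxcl10 (2.88), Epcam (6.25), Fgfbp1 (9.44), H1f0 (1.55), Krt14 (9.52), Krt15 (9.81), Krt5 (8.82), Mki67 (2.20), Pkp1 (9.55), Sprr2a2 (9.90), Sprr2a3 (9.73) and Tap1 (1.45). It was below for Acta1 (-10.36), Cd274 (-2.0), Cd68 (-4.42), Ckm (-10.39), Eef1a2 (-9.64), Mmp3 (-4.76), Myh4 (-9.14), Npy (-10.53), Pdgfra (-4.29) and Pvalb (-11.38).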

How the results depend on the processing

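No gene was called in the NSG comparison under a pseudocount of 0.5 or 5, no filter, a mean of at least 50, only the 10 libraries, quantile, cyclic loess or TMM scaling, empirical Bayes without trend and robust, or either setting chosen after seeing the data (9 libraries with entinostat E4 left out, or the 10 libraries with array weights). Array weights gave 1 call in all 15 libraries, Hmga1b, at -1.47 with an adjusted p of 0.0422, and leaving out each tumour gave 0 to 1, the 1 being Hmga1b without vehicle tumour V1 (log2 difference -1.49, adjusted p 0.00488). Genes with an unadjusted p below 0.05 ranged from 835 with only the 10 libraries to 2230 with array weights, where entinostat tumour E4 had a weight of 0.189, and from 885 to 1821 when each tumour was left out in turn. For the difference between hosts, the number called stayed within 1.5 times of the main one under every alternative, from 6112 with a mean of at least 50 to 7929 with quantile scaling, which moved the median of all genes from -0.057 to 0.13; the cause was not tested. Of 61 genes in the text tested here, 8 changed the sign of their fitted difference under some alternative, all uncalled. No paired analysis was possible because the entinostat and vehicle groups share no tumour number. Shallow depth limits what entinostat tumour E4 shows for low genes.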
